A study of Mus musculus with 7 samples.

Results

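The comparison described here sets DN3b γδ+ thymocytes against DN3b γδ− thymocytes of WT mice across all genes. A barcode was kept when it held at least 1000 detected genes, at most 10% of its UMIs (tags by which copies of 1 transcript are counted once) in mt- genes, and at most 1 UMI of the B cell genes Cd79a, Cd79b and Ms4a1 together. This left 11663 barcodes of DN3b γδ+ and 17959 of DN3b γδ−, 29622 of the 66446 that the same rule kept in all 7 libraries. Levels are given as CPM, the UMIs of a gene summed over the kept barcodes of a library and scaled to a library total of 1000000, beside the log2 ratio of DN3b γδ+ over DN3b γδ−, so that a positive value is higher in DN3b γδ+.

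Single-cell RNA sequencing had been run on 5 WT libraries (DN3a, DN3b γδ−, DN3b γδ+, DN4 γδ− and DN4 γδ+) and on 2 Lat-KO libraries, which are not used here. The WT cells came from pooled thymi of female and male C57BL/6 mice of 6 to 8 weeks, from which CD4+ and CD8+ cells had been depleted with beads, and 500 splenic B cells had been added to each library. DN3b γδ− was sorted as TCRδ− CD25+ CD44− CD71+ cells, whereas DN3b γδ+ was sorted as TCRδ+ CD3+ CD24+ CD44low CD25+ cells over the whole range of CD71 (the transferrin receptor, a mark of dividing cells). There was 1 library per group, so no difference between the groups was tested and no p-value is given.

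Double-negative (DN) thymocytes rearrange their T cell receptor (TCR) β, γ and δ genes at the DN3a stage. A cell that pairs a TCRβ chain with the invariant pre-TCRα chain signals through the pre-TCR and enters the αβ pathway, while a cell that expresses a paired γδ TCR may enter the γδ pathway. TCR signals reach the nucleus through the kinases LCK and ZAP70, the adaptor LAT, and the calcium, protein kinase C and RAS-ERK branches below it, of which the last induces the EGR factors and ID3.

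The 95% intervals printed below cover counting error only, not the spread between mice or libraries, because UMIs of 1 library share its cells and handling. Kept UMIs came to 194621578 in DN3b γδ+ and 338002035 in DN3b γδ−, with medians of 15990 and 17203 UMIs and of 3659 and 3805 genes per barcode. Ribosomal protein genes took 28.71% and 33.16% of the kept UMIs, and mt- genes 2.898% and 2.763%. Of the kept barcodes, 48 sequences occurred in both libraries. Of the genes that defined the sort, Trdc stood at 1015 CPM in DN3b γδ+ and 201.6 CPM in DN3b γδ−, Il2ra (CD25) at 30.4 and 96.9 CPM, Cd24a at 212 and 348 CPM, and Tfrc (CD71) at 72.3 CPM in both. These levels are set in part by the gates and are not findings.

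All 10 markers of DN3-stage T cells passed 20 CPM in 1 of the libraries. Of the markers of other cells, 1 of 11 myeloid genes passed (Cst3, 117 and 97.8 CPM), 1 of 6 thymic epithelial genes (Epcam, 47.8 and 33.5 CPM) and 4 of 7 genes of plasmacytoid cells (Bst2, Tcf4, Ccr9 and Ly6d), with Siglech at 0.00514 and 0.00296 CPM. Of the 7 genes of NK and innate cells, Nkg7 and Gzma passed, while Ncr1 had no UMI in either library and Prf1 stood at 3.44 and 0.0385 CPM. The 6 red cell genes summed to 2.40 and 3.94 CPM, Cd4 stood at 0.113 and 0.127 CPM, and the mast cell genes Mcpt8, Ms4a2 and Fcer1a had no UMI, while Cpa3, the 1 of 6 mast and basophil genes that passed and a study-named gene, stood at 87.9 and 2.42 CPM. Among genes of mature single-positive thymocytes, Ccr7, Cd69 and the study-named Klf2 passed the filter and were at least 2-fold higher in DN3b γδ+, while S1pr1 stood at 1.08 and 0.0414 CPM and Zbtb7b at 0.0617 and 0.0148 CPM. The 12 B cell markers summed to 114 CPM in DN3b γδ+ and 247 CPM in DN3b γδ−, most of it Ighm. If all UMIs of 8 B cell genes outside the filter and other than Ighm came from the added B cells, B cell RNA would make up 0.0721% of the kept UMIs of DN3b γδ+ and 0.0534% of those of DN3b γδ−. At that share it would account for at most 1.65% of the UMIs of any gene called higher below, the largest part being that of Ltb.

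Among 5412 genes with at least 20 CPM in 1 of the libraries, 278 were at least 2-fold higher in DN3b γδ+ (5.14%) and 96 at least 2-fold lower (1.77%), and the median log2 ratio was -0.02. A gene past that 2-fold limit is referred to as called. At least 8-fold differences were seen for 31 genes in the higher direction and for 4 in the lower direction. The filter admits a gene through the library where it is high, and 143 of the 278 lay under 20 CPM in DN3b γδ−, as did 51 of the 96 in DN3b γδ+. With the filter on the mean of both libraries, 228 of 5108 genes were higher (4.46%) and 70 lower (1.37%). Taken over a total without mt- and ribosomal protein genes, which lets 6549 genes pass, the numbers were 283 higher (4.32%) and 184 lower (2.81%).

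The added B cells gave a comparison in cells that had not been sorted by γδ TCR. Of 1424 genes with at least 100 CPM in B-like barcodes in which B cell UMIs were at least 10 times those of T cell genes (121 and 192 barcodes), 1.69% were at least 2-fold higher and 1.33% lower in the DN3b γδ+ library. By a wider rule for B-like barcodes, which admitted more T cell RNA, these shares were 2.25% and 2.38%. The strict barcodes also held T cell RNA, with Trdc at 217.4 CPM in the DN3b γδ+ library and 24.25 CPM in the DN3b γδ− library. Their shares are thus not free of the thymocyte contrast, and its part in them was not tested. Among kept thymocyte barcodes at the same limit of 100 CPM, 5.11% of 1604 genes were higher and 1.5% lower. In the higher direction the share of the thymocytes was above that of the B cells of the same libraries, and in the lower direction it lay between the shares by the strict and the wider rule.

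**Figure D1:**
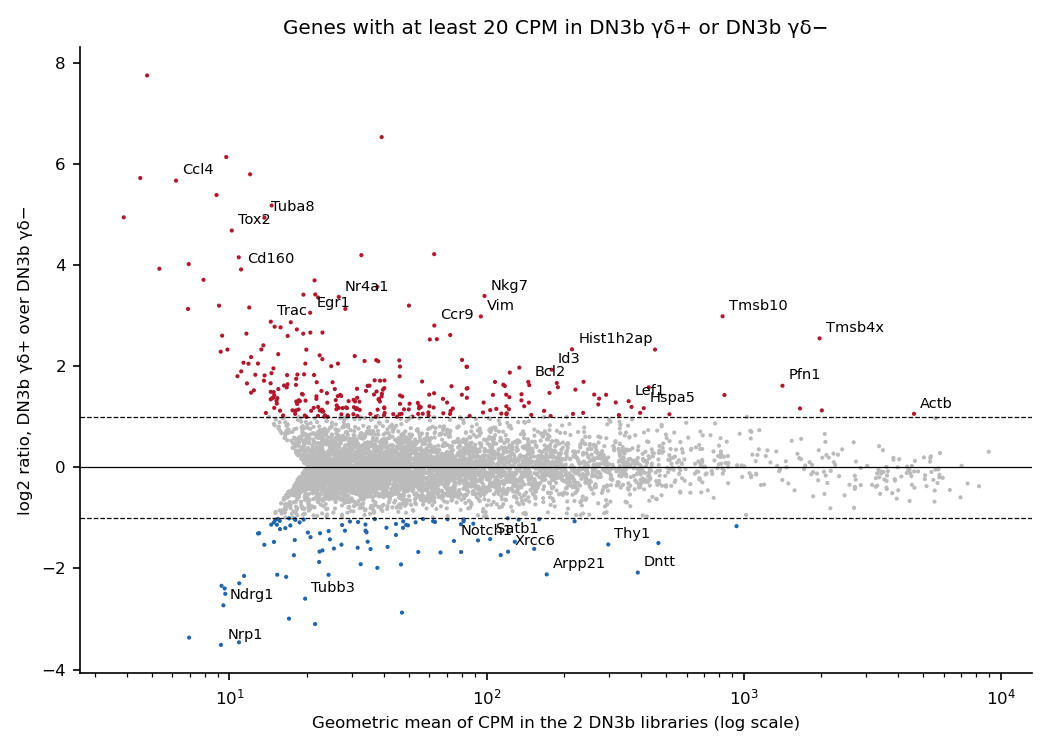
Each point is a gene with at least 20 CPM in DN3b γδ+ or DN3b γδ−. The x axis gives the geometric mean of both levels in CPM (log scale) and the y axis the log2 ratio of DN3b γδ+ over DN3b γδ−, with dashed lines at 1 and -1. The 278 red genes lie above the upper line and the 96 blue genes below the lower one, and abundant genes such as Tmsb4x, Tmsb10, Pfn1 and Actb are among the red.

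Several immediate-early and feedback genes of TCR signalling were at least 2-fold higher in DN3b γδ+, although others were not. In the list of EGR, NR4A and AP-1 factors and their partners, 17 of 35 genes passed the filter, of which 10 were called higher and none lower, with a median log2 ratio of 1.17. Of the 10, 5 lay under 20 CPM in DN3b γδ−. With the filter on the mean of both libraries, 8 of 15 were called higher (53.3%), where 4.46% of all genes were. Nr4a1, an orphan nuclear receptor induced by TCR signals, stood at 85.7 CPM in DN3b γδ+ and 8.27 CPM in DN3b γδ−, a log2 ratio of 3.37 (3.32 to 3.43). Egr1 stood at 59.5 and 7.14 CPM (log2 ratio 3.06). Nab2, a corepressor that binds EGR factors, stood at 39.3 and 5.71 CPM (log2 ratio 2.78, 2.71 to 2.86). DN3a, the stage before both, held 12 CPM of Nr4a1, 24.6 CPM of Egr1 and 3.11 CPM of Nab2, so that Egr1 was lower in DN3b γδ− than in DN3a. In the strict B-like barcodes of the DN3b γδ+ and DN3b γδ− libraries Nr4a1 was at 35.2 and 8.66 CPM and Egr1 at 51.8 and 12.1 CPM, the same direction as in the thymocytes, and the part of this in their ratios was not tested.

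The AP-1 members had another order between the 3 libraries. Junb was at 328 CPM in DN3b γδ+ and 109 CPM in DN3b γδ−, but at 1064 CPM in DN3a. Fos was at 111 and 49.4 CPM with 172 CPM in DN3a, and Jun at 142 and 82.4 CPM with 463 CPM in DN3a. For these genes DN3a was the highest of the 3 libraries, and DN3b γδ− lay farther from it than DN3b γδ+. Id3, an inhibitor of E proteins, went the other way from DN3a, at 36.9 CPM there, 91.7 CPM in DN3b γδ− and 350.2 CPM in DN3b γδ+. Myc was the 1 member of this list with a negative ratio, at 30.8 and 51.3 CPM (log2 ratio -0.74), which is under 2-fold.

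All 8 of the 25 listed ERK feedback genes that passed the filter were called higher (median 1.48), where 5.14% of all genes were. They were Etv5, the phosphatases Dusp5, Dusp2 and Dusp1, the G protein regulators Rgs2 and Rgs10, and the RAS GTPase-activating proteins Rasa2 and Rasal3. Etv5 is 1 of the genes that the study chose on these libraries and is not independent of them. Dusp5, a nuclear ERK phosphatase, was at 66.7 CPM in DN3b γδ+, 20.2 CPM in DN3b γδ− and 75.6 CPM in DN3a. Dusp2 was at 144, 48.7 and 92.6 CPM in the same order. In the strict B-like barcodes of DN3b γδ+ and DN3b γδ−, Dusp1 was at 41.4 and 10.4 CPM, the direction of the thymocytes. Rgs10 (68.3 and 36.4 CPM) and Etv5 (12.4 and 3.47 CPM) had that direction too. Dusp2 (211 and 225 CPM), Rgs2 (89.0 and 104 CPM), Rasa2 (51.8 and 46.8 CPM) and Rasal3 (55.9 and 53.7 CPM) differed little. Some of these values rest on few counts. After thinning to 2000 UMIs, Dusp1 was seen in 10 of 121 and 3 of 189 strict B-like barcodes, Etv5 in 4 and 0, and Dusp5 in 1 and 3. The part of the B-like levels in the ratios of the thymocytes was not tested. In G1-called barcodes the log2 ratios of Dusp5, Rasal3 and Dusp1 were 0.87, 0.60 and 0.58 and thus under 2-fold, and Rasal3 was also under it (0.96) over a total without mt- and ribosomal protein genes.

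In the calcium and NFAT list, 19 of 29 genes passed, 5 were called higher and 1 lower (median 0.62). Nfatc1 was at 77.7 and 17.8 CPM, a log2 ratio of 2.12 (2.08 to 2.17). Ppp3ca, the catalytic subunit of calcineurin, was at 31.3 and 12.5 CPM and Camk2d at 81.6 and 39.1 CPM. The called lower gene was Itpr2, a calcium release channel of the endoplasmic reticulum, at 44.6 and 142 CPM (log2 ratio -1.67). In the NF-κB list, 9 of 23 genes passed. Tnfaip3 (A20), Rel and Cflar were called higher, at 25.7 and 8.12 CPM, 21.1 and 7.34 CPM, and 53.6 and 26.6 CPM, while Nfkbie was called lower at 12 and 24.2 CPM and the median of the list was 0.22. Tnfaip3, Rel and Nfkbie passed the filter only through the library where they were high, and with the filter on the mean 6 genes passed, of which Cflar alone was called.

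The TCR complex and its proximal signalling genes showed a split between its parts. Of 51 genes, 43 passed the filter, 8 were called higher and none lower, with a median of 0.42. The 8 were Rasgrp1, Tespa1, Cblb, Lcp2, Malt1, Fyn, Cd247 and Prkcq. Rasgrp1, the exchange factor that activates RAS below the TCR, stood at 194 and 60 CPM (log2 ratio 1.69, 1.67 to 1.72), and Lcp2 (SLP-76) at 98.6 and 36.3 CPM. The kinase Fyn was at 60.6 and 23.8 CPM (log2 ratio 1.35), whereas the kinase Lck was at 278 and 473 CPM (log2 ratio -0.77, -0.78 to -0.75). Lat was at 383 and 468 CPM and Zap70 at 81.7 and 46.7 CPM, both under 2-fold. The CD3 chains were unequal, with log2 ratios of 0.998 for Cd3g, 0.50 for Cd3d and -0.06 for Cd3e, the last a chain recognised in the sort.

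**Figure D2:**
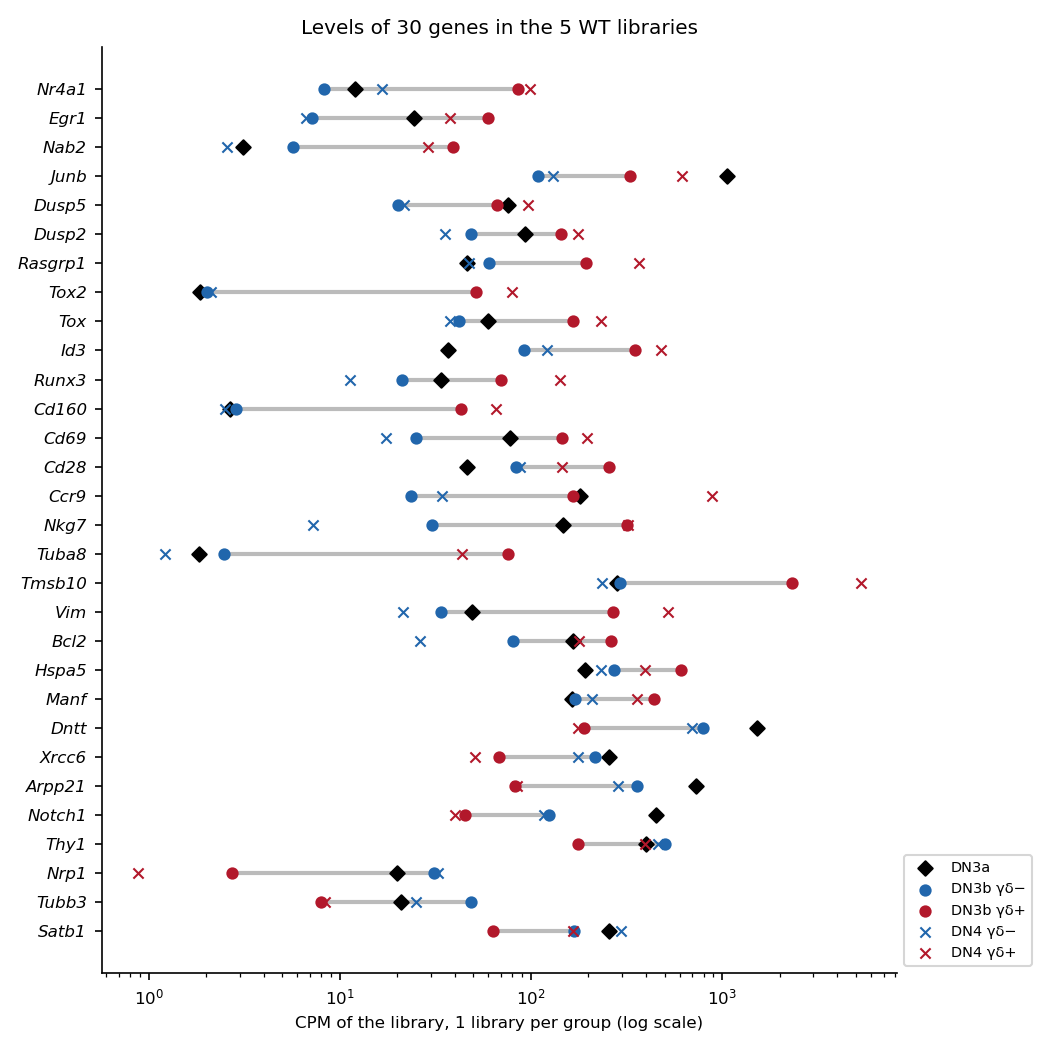
CPM (x axis, log scale) of 30 genes in the 5 WT libraries, 1 library each. Circles stand for DN3b, crosses for DN4, diamonds for DN3a, red for γδ+ and blue for γδ−, and the grey line joins both DN3b libraries. Genes from Nr4a1 to Manf have the red circle to the right of the blue one and genes from Dntt to Satb1 to its left.

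Surface receptors made up 11 calls higher and 4 lower among 22 of 46 costimulatory and inhibitory receptors that passed (median 1.08). Of the 11, 6 lay under 20 CPM in DN3b γδ−. With the filter on the mean of both libraries, 10 of 18 were higher and 3 lower. These are 55.6% and 16.7%, where 4.46% and 1.37% of all genes were. Izumo1r (folate receptor 4) stood at 45.9 CPM in DN3b γδ+ and 2.57 CPM in DN3b γδ− (log2 ratio 4.16, 4.06 to 4.26). Cd160, an immunoglobulin-family receptor at chr3:96798763-96829351 (mm10), stood at 43.1 and 2.86 CPM (log2 ratio 3.92, 3.82 to 4.02), with 2.65 CPM in DN3a. Cd69, an early activation antigen, was at 145 and 25 CPM with 77.8 CPM in DN3a. Both DN3a and DN3b γδ− were thus low for Cd160, whereas Cd69 was lower in DN3b γδ− than in DN3a. Cd2, Cd28, Cd27, Cd82 and Cd48 were also called higher, as were the study-named Cd5, Cd6 and Pdcd1, with Cd28 at 258 and 83.4 CPM and Cd27 at 293 and 105 CPM. The 4 called lower were Ctla4 (4.18 and 22 CPM), Thy1 (175 and 504 CPM), Ly6d (278 and 783 CPM) and Ly6e (627 and 1404 CPM).

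Chemokine, adhesion and migration genes gave 9 calls higher and 2 lower among 21 of 55 that passed (median 0.51), of which Klf2 and Itgb2 are study-named. Of the 9, 6 lay under 20 CPM in DN3b γδ−. With the filter on the mean of both libraries, 8 of 19 were higher and 1 lower. These are 42.1% and 5.26%, where 4.46% and 1.37% of all genes were. Ccr9, the receptor for the thymic and gut chemokine CCL25, stood at 166 CPM in DN3b γδ+, 23.7 CPM in DN3b γδ− and 181 CPM in DN3a. Itgal, the α chain of LFA-1, was at 67.3, 23.2 and 57.7 CPM in the same order. For both, DN3b γδ− was the low library of the 3. Nrp1, a coreceptor of semaphorins and VEGF, was called lower, at 2.74 and 31.3 CPM with 20 CPM in DN3a (log2 ratio -3.51, -3.64 to -3.39). Tnfsf11 (RANKL), a ligand through which thymocytes act on the medullary epithelium, was at 29.1 and 4.65 CPM (log2 ratio 2.65), and Sema4a at 33.7 and 7.12 CPM.

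Of the γδ effector genes, Nkg7 and Gzma were abundant. Nkg7, a granule membrane protein, stood at 318 and 30.3 CPM (log2 ratio 3.39, 3.36 to 3.42). Outside this list, the cathepsin Ctsw (23.1 and 3.8 CPM) and the cystatin Cst7 (27.6 and 3.01 CPM) passed the filter only through DN3b γδ+. Gzma (granzyme A) was at 639 and 676 CPM, and the share of barcodes with a Gzma UMI after thinning to 5000 UMIs was 56.3% in DN3b γδ+ and 85.6% in DN3b γδ−. Only 8 of 42 γδ effector genes passed the filter, 6 of them were called higher, and 3 of those 6 (Cpa3, Sox13 and Blk) are genes that the study chose on these libraries. The others called were Ccl4, Nkg7 and Ikzf2.

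In the cytokine receptor and STAT list, 19 of 53 genes passed, 4 were called higher and 2 lower (median 0.06). Il2rg, the common γ chain, was at 93.8 and 41.3 CPM, and Il21r at 98.4 and 46.8 CPM. Il7r, the receptor chain for the survival factor interleukin 7, was called lower at 36.4 and 77.2 CPM (log2 ratio -1.09, -1.12 to -1.05). The other lower call was Il2ra, which was part of the sort. Il7r is also 1 of the genes whose ratio depended on the phase, with a log2 ratio of 0.15 in G1-called, -0.95 in S-called and -1.56 in G2M-called barcodes.

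Transcription factors that set T-lineage identity gave 12 calls higher and 1 lower among 37 of 70 that passed (median 0.29), and 2 of the 12 (Sox13 and Etv5) are study-named. With the filter on the mean of both libraries, 11 of 35 were higher (31.4%) and 1 lower (2.86%), where 4.46% and 1.37% of all genes were. Tox2, an HMG-box factor at chr2:163203125-163324170 (mm10), stood at 51.8 and 2.01 CPM (log2 ratio 4.69, 4.57 to 4.80) with 1.85 CPM in DN3a. Its relative Tox was at 167 and 41.9 CPM with 59.4 CPM in DN3a. Tox2 was close to 0 in both libraries without surface γδ TCR, whereas Tox was present in all 3. Id2 (29.9 and 5.93 CPM), Runx3 (69.9 and 21.3 CPM), Gata3 (182 and 82 CPM), Ikzf2 (213 and 92.1 CPM) and Lef1 (562 and 227 CPM) were also called higher. Lef1os1, which overlaps Lef1 on the other strand, had a larger log2 ratio than Lef1 (3.14 against 1.31), and where counting does not use strand reads of the pair cannot be told apart.

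The called lower factor was Satb1, a chromatin organiser of thymocytes, at 63.2 and 169 CPM (log2 ratio -1.42, -1.45 to -1.39). Runx1 (66.7 and 129 CPM) and Bcl11b (173 and 326 CPM), which commit cells to the T lineage, had log2 ratios of -0.95 and -0.91 and were not called. Runx3 and Runx1 thus had ratios of opposite sign, while their partner Cbfb was at 107 and 49.2 CPM. Notch1, which drives the DN stages, was at 45.1 CPM in DN3b γδ+, 124 CPM in DN3b γδ− and 454 CPM in DN3a (log2 ratio -1.46, -1.49 to -1.42). In the Notch list, 10 of 27 genes passed, 3 were called lower (Notch1, Il2ra and the study-named Ptcra) and Gata3 higher, and the Notch target Hes1 was at 44.1 and 77.5 CPM.

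At the TCR loci, Trac had the largest ratio of the constant genes, above that of Trdc, which was part of the sort. Trac, the α constant gene, at chr14:54220521-54224206 (mm10), stood at 39.3 CPM in DN3b γδ+ and 5.33 CPM in DN3b γδ−, with 1.18 CPM in DN3a (log2 ratio 2.88, 2.81 to 2.96). Trbc1 was at 1847 and 1281 CPM and Trbc2 at 2540 and 2133 CPM, so that β constant transcripts were abundant in both libraries. The γ constant genes had log2 ratios of 1.06 for Tcrg-C4, 0.83 for Tcrg-C2 and 0.61 for Tcrg-C1. Of 7 TRG variable segments, 2 passed the filter. Tcrg-V1 was called higher at 28.6 and 9.3 CPM but passed only through DN3b γδ+. The more abundant Trgv2 was at 149 and 117 CPM and was not called. With the filter on the mean of both libraries, 1 TRG segment passed and none was called. The β constant genes are close copies, as are some of the γ constant genes, so reads may be split between such copies unevenly. The 128 TRA and 6 TRD variable segments summed to 10.4 and 2.69 CPM and to 16.0 and 1.65 CPM, and the 35 TRB variable segments to 8.15 and 16.2 CPM, none of them reaching 20 CPM.

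Genes that open and join TCR gene segments gave 4 calls lower and none higher among 8 of 13 that passed, the study-named Rag1, Dntt, Xrcc6 and Lig4. With the filter on the mean of both libraries, 6 passed and 2 were called lower, Dntt and Xrcc6, while the median of the list turned from -0.62 to 0.08. Dntt (terminal transferase), which adds bases at the joints, stood at 1528 CPM in DN3a, 797 CPM in DN3b γδ− and 189 CPM in DN3b γδ+ (log2 ratio -2.08, -2.10 to -2.06). Xrcc6 (Ku70), at chr15:81987835-82040085 (mm10), was at 257 CPM in DN3a, 216 CPM in DN3b γδ− and 68 CPM in DN3b γδ+ (log2 ratio -1.67, -1.70 to -1.64). Xrcc5 (Ku80), the partner of Ku70 in end joining, was at 39.4 and 42.3 CPM. The Ku subunits thus had unlike ratios. Desi1, which lies within Xrcc6 on the other strand, was at 87.7 and 268 CPM (log2 ratio -1.61), and the sources used here do not state whether strand was used in the counting, so reads of both genes may not be told apart.

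The place of DN3a differed among the genes called lower. Arpp21, an RNA-binding protein of early thymocytes, stood at 729 CPM in DN3a, 357 CPM in DN3b γδ− and 82.3 CPM in DN3b γδ+. Aqp11 was at 409, 119 and 36.9 CPM and Prss57 at 159, 74.9 and 18.9 CPM in the same order. For these 3, DN3b γδ− lay between DN3a and DN3b γδ+. Mia2 (62.3 and 207 CPM), Thra (11.7 and 42.7 CPM) and Thy1 were instead higher in DN3b γδ− than in DN3a, where they were at 77.3, 35.5 and 399 CPM. Ndrg1, a stress-response gene, was at 3.68 and 24.4 CPM.

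Among the functional lists, that of the actin cytoskeleton had the largest number of calls, though several shorter lists had a larger share. Of 56 genes, 49 passed, 17 were called higher and none lower (median 0.64), with the same numbers under the filter on the mean. The 17 include Tuba8, described below, and the study-named Tes. The summed level of all 56 was 32039 CPM in DN3b γδ+ and 16323 CPM in DN3b γδ−. Tmsb4x (thymosin β4), an actin-sequestering peptide encoded at chrX:167207093-167209315 (mm10), stood at 4786 CPM in DN3b γδ+, 815 CPM in DN3b γδ− and 2444 CPM in DN3a (log2 ratio 2.55, 2.55 to 2.56). Tmsb10, its relative, was at 2336, 294 and 282 CPM in the same order (log2 ratio 2.99). DN3b γδ− was the lowest library for Tmsb4x, while for Tmsb10 it was near DN3a.

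Actb and Actg1, the cytoplasmic actins, had log2 ratios of 1.06 and 1.17. Pfn1 (profilin) was at 2481 and 809 CPM, Lcp1 (L-plastin) at 429 and 133 CPM, the intermediate filament gene Vim at 268 and 33.8 CPM, and Coro2a at 53.8 and 13 CPM. The actin-severing protein Cfl1 (1163 and 1068 CPM) and the GTPase Rhoa (545 and 406 CPM) were under 2-fold, and the lowest ratio of the list was that of Marcks (101 and 191 CPM, log2 ratio -0.91). Tmsb4x was also abundant in the strict B-like barcodes, and at the share of B cell RNA given above 7.53 CPM of it in DN3b γδ+ and 3.94 CPM in DN3b γδ− would come from them.

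Tubulin genes, singled out after their values had been seen, differed in both directions. Tuba8, an α-tubulin at chr6:121210696-121226854 (mm10), stood at 75.8 CPM in DN3b γδ+ and 2.47 CPM in DN3b γδ− (log2 ratio 4.94, 4.84 to 5.04). Tubb3 was at 8.01 and 48.5 CPM (log2 ratio -2.60), Tubb2b at 4.93 and 24.2 CPM, and Tubb2a at 14.3 and 35.4 CPM. Tuba1a was called higher, at 56.0 and 25.4 CPM (log2 ratio 1.14). The abundant isotypes Tuba1b (1035 and 1318 CPM) and Tubb5 (1772 and 1580 CPM) were under 2-fold. Tubb2a and Tubb2b are near-identical copies, so the split of their reads is uncertain.

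Several folding proteins of the endoplasmic reticulum (ER), which the unfolded protein response induces, were at least 2-fold higher in DN3b γδ+. Of 28 features in the stress-response list, 14 passed, 6 were called higher and none lower (median 0.83), and all 6 had at least 20 CPM in both libraries. They were Pdia4, Dnajc3, Manf, Sdf2l1, Pdia6 and Hspa5. Hspa5 (BiP), the main ER chaperone, stood at 614 CPM in DN3b γδ+, 272 CPM in DN3b γδ− and 193 CPM in DN3a (log2 ratio 1.17, 1.16 to 1.18). Manf was at 439.7, 171 and 165 CPM, Pdia6 at 419, 177 and 141 CPM, and Sdf2l1 at 217, 86.3 and 52.9 CPM in the same order. DN3b γδ+ was the highest of the 3 libraries for each of these 4 genes. Manf overlaps Rbm15b on the same strand, so its count is less certain. In the strict B-like barcodes of the same libraries the levels were also higher on the DN3b γδ+ side, at 95.3 and 38.1 CPM for Dnajc3, 213 and 105.7 CPM for Manf, 439 and 226.9 CPM for Hsp90b1 and 346 and 308 CPM for Hspa5, and the part of this in the ratios of the thymocytes was not tested.

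Genes of other branches of the stress response were under 2-fold. Xbp1, a factor of the unfolded protein response, was at 55.3 and 33.9 CPM (log2 ratio 0.71). Atf4 (105 and 89.2 CPM), Psat1 (99.7 and 110 CPM) and Ppp1r15a (36.1 and 26.4 CPM), which belong to the integrated stress response, had log2 ratios of 0.23, -0.14 and 0.45. In the chaperone list, 29 of 30 genes passed, the 2 called higher were Hspa5 and Hsp90b1, both of the ER, and the median was 0.03. Hsp90b1 was under 2-fold (0.96) over a total without mt- and ribosomal protein genes, and the ER chaperones Calr (614 and 411 CPM) and Hyou1 (31.4 and 19.9 CPM) had log2 ratios of 0.58 and 0.65. The mitochondrial chaperone Hspd1 was at 926 and 1054 CPM. The ER genes differed by phase in size but not in sign, Hspa5 with log2 ratios of 1.87, 1.21 and 1.12 in G1-called, S-called and G2M-called barcodes.

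The promoters of ER folding genes are known to carry the ER stress element, a CCAAT box spaced by 9 bases from CCACG. The letters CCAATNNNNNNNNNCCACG, read on both strands of the 250 bases before each RefSeq start (GRCm38.p6), were found in 35 of 27025 genes with a promoter sequence (0.13%). Of the 14 stress-response genes that passed the filter, 12 matched the table by symbol and 4 held the letters (33.3%), namely Hspa5, Pdia6, Dnajc3 and Creld2. Of the 204 genes called higher with a promoter sequence, 4 held them (1.96%), against 8 of the 4358 genes that passed the filter and had one (0.184%), with Hsp90b1 in place of Creld2, which was at 64.7 and 33.2 CPM and missed the limit with a log2 ratio of 0.96. The EGR letters GCGTGGGCG were found in 0.622% of all promoters, in 0.987% of those of the genes that passed the filter and in 0.98% of those of the genes called higher. The other holders that passed the filter were Calr, Canx and Hnrnpa3, with log2 ratios of 0.58, -0.02 and 0.25, none of them called. Since ER folding genes were already known to carry the element, its share in the stress-response list is no test. Hspa5, Pdia6 and Dnajc3 are members of that list, so the share among the genes called higher is not independent of it. A match is a description of these letters and shows no binding. The last 150 bases before the start of the 5 genes with the highest ratios among these 8 are shown on the strand of the gene, with the matching letters in capitals. In Creld2 and Hsp90b1 the match reads on the opposite strand, and Hsp90b1 holds a further match upstream of the bases shown.
Hspa5, chr2:34771940-34772089, plus strand: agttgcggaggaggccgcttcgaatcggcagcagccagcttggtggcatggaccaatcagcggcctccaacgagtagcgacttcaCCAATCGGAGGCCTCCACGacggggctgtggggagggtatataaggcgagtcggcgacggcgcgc
Pdia6, chr12:17266439-17266588, plus strand: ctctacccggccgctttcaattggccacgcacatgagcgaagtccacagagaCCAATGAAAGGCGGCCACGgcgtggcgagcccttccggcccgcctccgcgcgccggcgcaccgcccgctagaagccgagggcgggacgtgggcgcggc
Dnajc3, chr14:118937782-118937931, plus strand: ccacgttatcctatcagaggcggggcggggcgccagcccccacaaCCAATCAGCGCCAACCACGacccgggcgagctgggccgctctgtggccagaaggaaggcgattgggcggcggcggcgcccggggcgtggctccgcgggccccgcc
Creld2, chr15:88819496-88819645, plus strand: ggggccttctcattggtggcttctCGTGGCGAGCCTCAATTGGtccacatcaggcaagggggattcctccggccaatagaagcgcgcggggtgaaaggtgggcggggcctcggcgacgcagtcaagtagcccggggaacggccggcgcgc
Hsp90b1, chr10:86705445-86705594, minus strand: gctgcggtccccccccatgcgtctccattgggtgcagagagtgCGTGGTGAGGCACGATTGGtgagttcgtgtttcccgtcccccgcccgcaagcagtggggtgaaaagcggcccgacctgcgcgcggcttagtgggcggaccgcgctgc

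**Figure D3:**
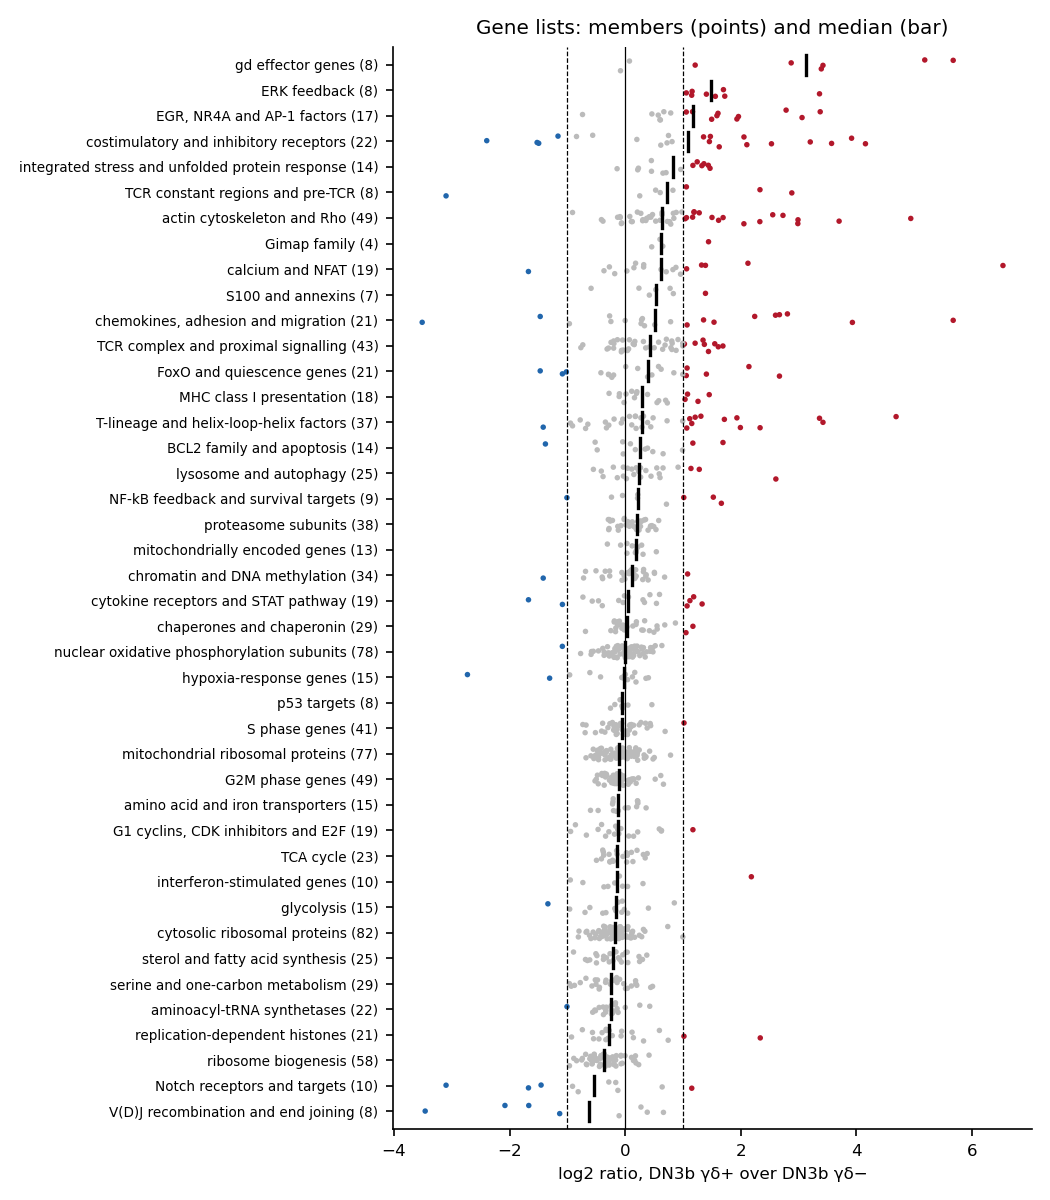
Log2 ratio of DN3b γδ+ over DN3b γδ− (x axis) for the members of 42 gene lists that passed 20 CPM in 1 library, with the number of members in brackets, the black bar at the list median, red points at or above 1 and blue points at or below -1. The γδ effector list, which holds study-named genes, has the highest median (3.13) and the V(D)J list the lowest (-0.62), which turned to 0.08 with the filter on the mean of both libraries.

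Lists of cell division, ribosome and metabolic genes held few calls, where 5.14% of all genes were called higher and 1.77% lower. In the S phase list 1 of 41 genes that passed was called higher (Dscc1), in the G2M list none of 49 was called, and their medians were -0.06 and -0.11. The summed level of the G2M genes was 10449 CPM in DN3b γδ+ and 10193 CPM in DN3b γδ−. Phase scores, computed on the kept barcodes of both libraries together, called 6.72% G1 in DN3b γδ+ and 3.42% in DN3b γδ−, and 35.5% and 42.9% G2M. The paper, with other software and barcode filters, gives a lower share of DN3b γδ+ cells in S and G2M. What sets this difference was not tested. After thinning to 5000 UMIs, with 1267 and 489 shallower barcodes left out, the G1 shares were 8.66% and 3.24%. The sort on CD71 in DN3b γδ− alone and free RNA can both set these shares, and their part in them was not tested. Among cell cycle regulators, 19 of 30 passed the filter and the inhibitor Cdkn2c alone was called, in the higher direction (60.1 and 26.7 CPM). With the filter on the mean it made up 5.26% of 19 genes, near the 4.46% of all genes. The D cyclins Ccnd2 (191 and 124 CPM) and Ccnd3 (161 and 309 CPM) had log2 ratios of 0.63 and -0.94.

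Histone genes of the replication-dependent class gave 2 calls among 21 of 67 that passed, Hist1h2ap (483 and 95.7 CPM) and Hist1h2ae (253 and 125 CPM), while the median was -0.27. These genes are near-identical copies and most of their transcripts lack a poly(A) tail, so their counts are uncertain. In the strict B-like barcodes of the same libraries Hist1h2ap was at 188 and 10.4 CPM and Hist1h2ae at 116 and 27.7 CPM, the direction of the thymocytes. These barcodes also held T cell RNA, and what sets their levels was not tested. Ribosome biogenesis had 58 of 59 genes past the filter, none called, and 51 of the 58 below 0 with a median of -0.37. Its abundant members Ncl (1529 and 2273 CPM) and Npm1 (3150 and 3609 CPM) had log2 ratios of -0.57 and -0.20. The direction turned with the phase, since the median of the list was 0.19 in G1-called, -0.31 in S-called and -0.51 in G2M-called barcodes, and Ncl had 0.24 in G1-called ones. Cytosolic ribosomal proteins had a median of -0.17, and the total of 28.71% against 33.16% given above moves with it. Medians were -0.16 in glycolysis, -0.01 in nuclear oxidative phosphorylation subunits, -0.14 in the TCA cycle, -0.21 in sterol and fatty acid synthesis and 0.20 in proteasome subunits. In glycolysis the lactate transporter Slc16a1 was the 1 gene called, at 28 and 70.6 CPM. With the filter on the mean it made up 6.67% of 15 genes, where 1.37% of all genes were called lower.

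Of the survival genes, Bcl2 was called higher and Bid lower. Bcl2 stood at 261 CPM in DN3b γδ+, 80.8 CPM in DN3b γδ− and 165 CPM in DN3a (log2 ratio 1.69, 1.67 to 1.71), and the pro-apoptotic Bid at 12.8, 33.3 and 17.3 CPM (log2 ratio -1.38). The related Mcl1 was at 171 and 108 CPM. Of 31 genes in that list, 14 passed, 2 were called higher and 1 lower. In the MHC class I list, 18 of 25 genes passed and 4 were called higher, H2-T23, H2-Q7, H2-D1 and the ER protein Pdia3, the last 2 of which were under 2-fold (0.98 and 0.94) over a total without mt- and ribosomal protein genes. H2-D1 was at 345 and 164 CPM and H2-K1 at 289 and 178 CPM, while DN3a held 391 and 404 CPM of them. The H2 genes share much sequence and their reads may be split unevenly. Of 51 interferon-stimulated genes, 10 passed and 1, Usp18, was called (25.9 and 5.7 CPM), with a median of -0.14. With the filter on the mean of both libraries, 8 passed and none was called. In the strict B-like barcodes of the same libraries Usp18 was at 26.9 and 5.2 CPM, the direction of the thymocytes, which was not tested further.

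Several genes outside any list stood at the top of the ranking. Gem, a small GTPase induced in activated T cells and named here after its values were seen, had the highest ratio of the genes that passed the filter, at 70.3 CPM in DN3b γδ+, 0.325 CPM in DN3b γδ− and 0.885 CPM in DN3a (log2 ratio 7.76, 7.48 to 8.04). In the strict B-like barcodes Gem was at 33.1 and 3.47 CPM. Fhl2 was at 28 and 1.72 CPM and Qpct at 21.6 and 0.698 CPM. Gstp1 was at 52 and 8.19 CPM with 93.5 CPM in DN3a, and Dok2, an adaptor that dampens TCR signals, at 95.4 and 22 CPM. Gm42418 and AY036118, also named after their values were seen and transcribed from opposite strands in a region of ribosomal RNA repeats, were also higher, at 1384 and 513 CPM and at 167 and 42.1 CPM, with 6913 and 1214 CPM in DN3a. In the strict B-like barcodes they were at 5355 and 1814 CPM and at 681 and 171.5 CPM. The ratios in these barcodes were thus about as large as in the thymocytes, and what sets them was not tested.

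The share of barcodes with a UMI gave the same order for the leading genes after each barcode had been thinned to 5000 UMIs, which left 10396 and 17470 barcodes. Tuba8 was seen in 27.4% (26.5 to 28.2%) of DN3b γδ+ and 1.23% (1.07 to 1.40%) of DN3b γδ− barcodes, and Tox2 in 20.8% (20.1 to 21.6%) and 0.95% (0.81 to 1.11%), by exact Clopper-Pearson intervals. Dntt was seen in 46.0% and 96.8%, Xrcc6 in 27.3% and 64.7%, and Arpp21 in 29.5% and 78.9%. Free RNA sets a background for such shares. After thinning to 2000 UMIs, Dntt was seen in 27.1% of the DN3b γδ+ barcodes and in 15.7% (9.73 to 23.4%) of the 121 B-like barcodes of that library, which should lack it, and Tuba8 in 13.4% and 2.48% (0.514 to 7.08%). The shares of the thymocytes lay above both of these intervals. For Nkg7 the shares were 44.4% in DN3b γδ+ and 13.2% (7.75 to 20.6%) in its B-like barcodes, and in DN3b γδ− they were 6.39% and 0 of 189 barcodes (0 to 1.93%).

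The ratios were recomputed within barcodes of 1 called phase. Of 151 genes of the text that were called, 144 were called in the same direction in S-called barcodes, 145 in G2M-called and 115 in G1-called ones, of which there were 784 and 614. Bcl2 had a log2 ratio of 0.58 in G1-called against 1.93 in S-called barcodes, and Thy1 -0.83 against -1.70. Tox2, Nr4a1 and Etv5 instead had their highest ratio in G1-called barcodes.

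**Figure D4:**
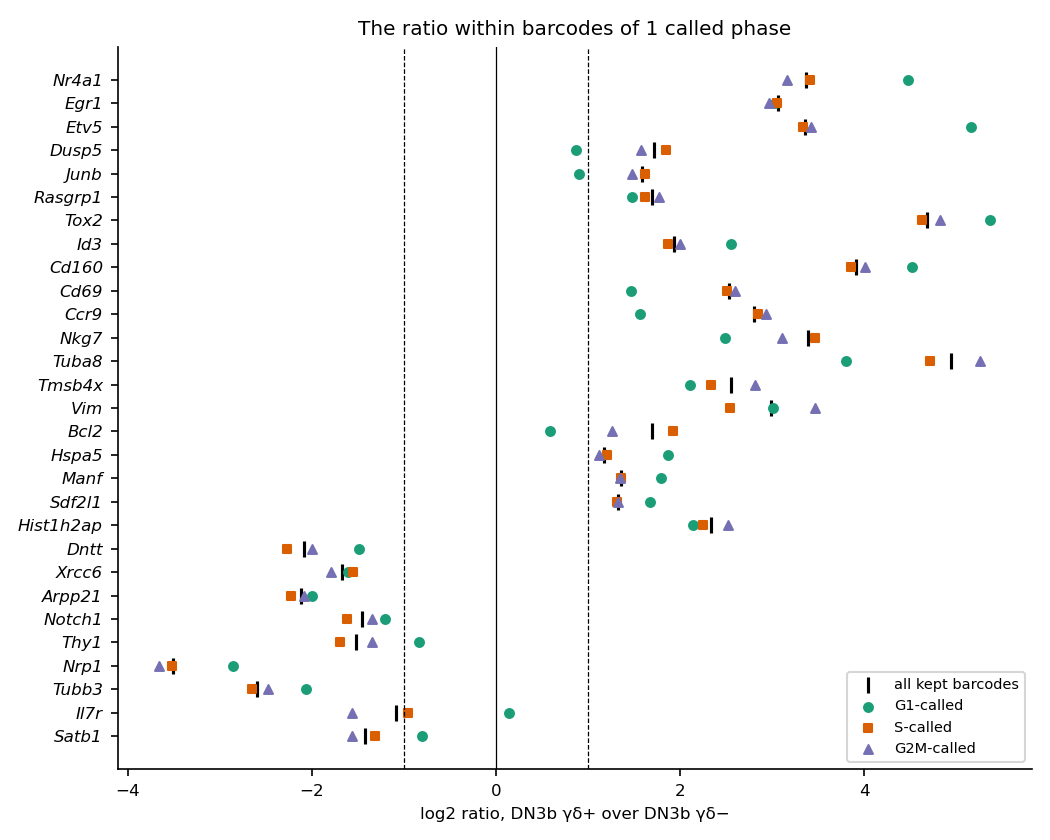
Log2 ratio of DN3b γδ+ over DN3b γδ− (x axis) of 29 genes within G1-called, S-called and G2M-called barcodes, with the value of all kept barcodes as a black bar and dashed lines at 1 and -1. Most symbols of a gene lie on the same side of 0, and the G1 symbol of Il7r (0.15) lies on the other side of 0 from its S and G2M symbols.

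The same contrast was made a stage later, between DN4 γδ+ and DN4 γδ−, which are other libraries. There 18.1% of 5834 genes were at least 2-fold higher in DN4 γδ+ and 9% lower, and the median log2 ratio was 0.10. Of the 5181 genes that passed at both stages, 265 were called higher at DN3b and 663 at DN4, with 216 in common, which is 81.5% of the former and 32.6% of the latter. In the lower direction 80 and 518 were called, with 41 in common (51.3% and 7.92%). Tmsb10 had a log2 ratio of 4.50 at DN4, Tox2 of 5.23, Nkg7 of 5.48, Nrp1 of -5.21 and Dntt of -1.98. Rasgrp1 went from 1.69 to 2.96 and Prkcq from 1.03 to 3.47, as did the EGR, NR4A and AP-1 list in its median, from 1.17 to 1.96.

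The stress-response list had a median of 0.76 at DN4 against 0.83 at DN3b, with 5 of 17 genes called higher and 1 lower there. The 6 ER folding genes, chosen for their ratio at DN3b, had log2 ratios at DN4 of 1.09 for Dnajc3, 0.98 for Pdia4, 0.76 for Hspa5, 0.78 for Manf, 0.63 for Pdia6 and 0.07 for Sdf2l1. Of these Dnajc3 alone was past 2-fold at DN4. Cd28 (0.73 at DN4), Pfn1 (0.82) and Thy1 (-0.23) were called at DN3b and not at DN4, but the difference between the stages was not tested. The lists of division and ribosome genes differed at DN4, with medians of -1.24 for S phase, -0.84 for G2M and -1.26 for ribosome biogenesis. Of the genes called at both stages, 3 were higher at DN3b and lower at DN4 (Hist1h2ap, Hist1h2ae and Gm10076) and 3 were lower at DN3b and higher at DN4 (Il7r, Klf3 and Mxd4). Il7r stood at 85.2 CPM in DN4 γδ+ and 28.3 CPM in DN4 γδ−, and Klf3 at 85.3 and 41.5 CPM.

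**Figure D5:**
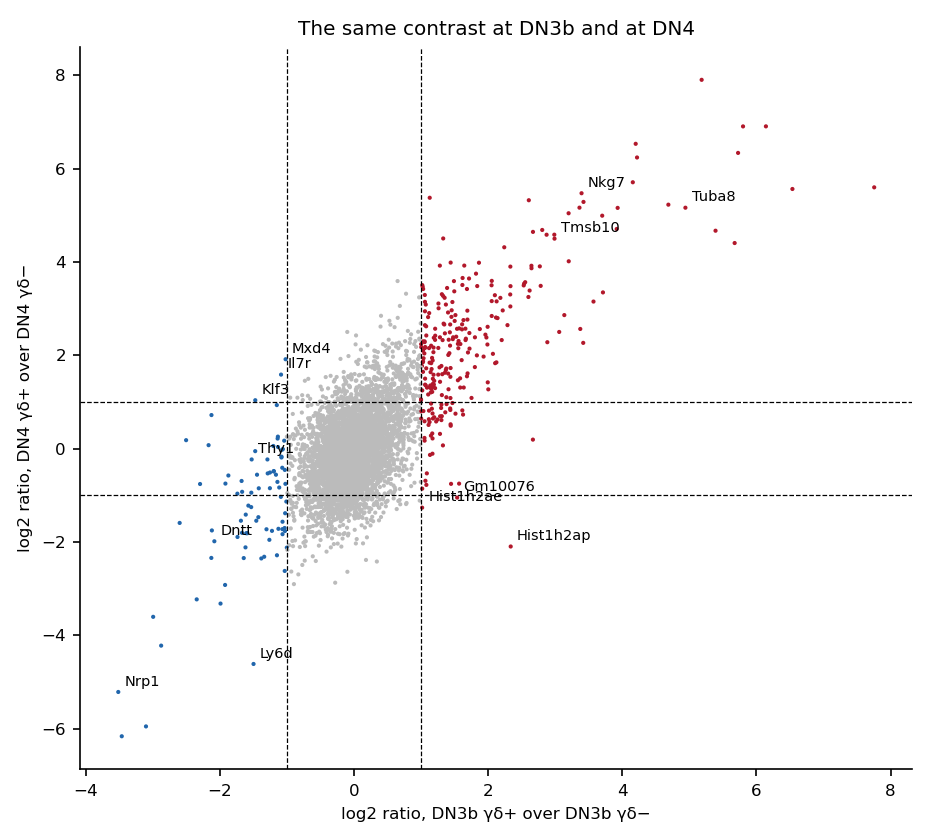
Each point is a gene that passed 20 CPM in 1 library at both stages, with the log2 ratio of γδ+ over γδ− at DN3b on the x axis and at DN4 on the y axis, and dashed lines at 1 and -1. Genes called at DN3b are red (higher) or blue (lower), and 216 of the 265 red genes lie above the upper dashed line while Hist1h2ap, Hist1h2ae and Gm10076 lie below the lower one.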

How the data were processed

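For each library the authors deposited a matrix of whole-number UMI counts, made with Cell Ranger (4.0.0 per the file headers, 5.0.1 per the submitters' processing notes) on mm10 with a Trdc reporter feature added, from Chromium 3' v3 libraries. UMIs were summed over kept barcodes and scaled to CPM (Python 3.11.15 with scipy 1.17.1), and the 95% interval of each log2 ratio is the exact binomial one given the sum of both counts. A count of 0 would enter as 3 UMIs. Doublets were not called, and an alternative left out the 8% of barcodes with most UMIs. Positions are from GENCODE vM21, which held 32158 of 32286 features. The ratio, its intervals and calls were tested on simulated counts.

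The members, the gene lists and the tests were chosen with earlier results of these data known. Named genes were the 25 highest and 25 lowest ratios and the 10 largest CPM differences in each direction (without mt-, ribosomal protein, receptor segment and study-named genes, and those with more CPM in B-like barcodes), members of the gene lists, and sort genes. Alternatives changed the barcode filters, the scaling (edgeR 4.0.16 TMM, DESeq2 1.42.0 median of ratios), the phase and the low-level filter. The stricter B-like rule, the thinning to 2000 UMIs and the alternative without shared barcodes were added after the data had been seen. Results of a few genes are not reported here.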

Additional observations from a re-analysis of the deposited data

Results flagged for a closer look

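The contrast of γδ+ against γδ− had opposite directions at DN3b and DN4 for 6 genes, all past 2-fold at both stages, and with 1 library per group the difference between the stages was not tested. Hist1h2ap had a log2 ratio of 2.34 at DN3b and -2.09 at DN4, and Hist1h2ae of 1.02 and -1.26. Gm10076, annotated as a lincRNA, had 1.54 and -1.04. Il7r had -1.09 at DN3b and 1.59 at DN4, Klf3 -1.47 and 1.04, and Mxd4 -1.02 and 1.92. In the strict B-like barcodes of the DN3b γδ+ and DN3b γδ− libraries, Hist1h2ap stood at 188 and 10.4 CPM, Hist1h2ae at 116 and 27.7 CPM and Gm10076 at 331 and 93.5 CPM, the direction of the thymocytes. After thinning to 2000 UMIs, Hist1h2ap was seen in 30.6% (22.5 to 39.6%) and 1.59% (0.329 to 4.57%) of these barcodes, and Gm10076 in 47.1% and 15.3%. The strict B-like barcodes also held T cell RNA, and its part in these values was not tested. Over the mean CPM of single barcodes, the DN3b ratios of Il7r (-0.89), Mxd4 (-0.99) and Hist1h2ae (0.86) were under 2-fold.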

How the results depend on the processing

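With 1 library per side, every value describes these libraries, and sort and library cannot be told apart from the γδ status. The calls were counted under 15 alternatives and, after the data had been seen, without the shared barcodes. The counts of 278 higher and 96 lower genes moved past 1.5 times only as follows. Without genes higher in B-like barcodes they were 103 and 61. With a filter of 5 CPM they were 491 and 233, of 50 CPM 155 and 49, and with no filter 2306 and 1532. The lower count alone moved to 184 with the total taken without mt- and ribosomal protein genes and to 246 in G1-called barcodes. Among 151 called genes of the text, the direction turned only for Il7r in G1-called barcodes (0.15). Of these 151, 135 were called with the total taken without mt- and ribosomal protein genes, 146 with mean CPM over barcodes and 115 in G1-called barcodes. The former scaling put Rasal3, Cflar, Camk2d, Prkcq, Il21r, Tcrg-C4, Actb, Hsp90b1, Pdia3, H2-D1 and Hist1h2ae under 2-fold (0.92 to 0.98) and Runx1, Bcl11b, Marcks and Ccnd3 past it (down to -1.04). In G1-called barcodes the median turned positive for ribosome biogenesis (0.19), S phase (0.31), G2M (0.18) and sterol and fatty acid synthesis (0.26), and among others for aminoacyl-tRNA synthetases (0.22), serine and one-carbon metabolism (0.19) and hypoxia-response genes (0.31), and negative for cytokine receptors (-0.07). The median of the B cell marker list, -1.47 from Ighm alone, turned to 0.61 over 12 genes with no filter. TMM and median-of-ratios scaling moved all log2 ratios by -0.01 and 0.00. No paired analysis was possible because each group has 1 library.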

Other observations

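Within the strict B-like barcodes several genes showed the direction of the thymocytes of the same library, among them Nkg7, Ccr9, Cd3g and Lef1. Other genes called higher in the thymocytes went the opposite way there. Among these were Bcl2 (151 and 191 CPM), Cd69 (248 and 274 CPM) and Runx3 (47.6 and 65.8 CPM). After thinning to 2000 UMIs, Nkg7 was seen in 13.2% of 121 B-like barcodes of DN3b γδ+ and in 0 of 189 of DN3b γδ−, and Ccr9 in 8.26% (4.03 to 14.7%) and 1.06% (0.128 to 3.77%). Cd3g was seen in 43.8% and 14.3%, and Lef1 in 21.5% and 7.41%. Trdc was seen in 28.1% and 5.29%, so these barcodes held T cell RNA, and its part in these shares was not tested.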
